A study of Mus musculus with 6 samples.

Results

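The core circadian clock loop genes Arntl (also written Bmal1), Clock, Npas2, Per1, Per2, Per3, Cry1 and Cry2 were described in mouse heart RNA. They were found as the probe sets whose single gene symbol in the platform annotation is one of these 8 names. All 8 genes had at least 1 probe set, with 20 probe sets in all, among the 18193 genes and 45101 probe sets of the table. The probe set of highest mean signal over the 6 arrays, called the main one below, stood for each gene. RNA was taken from hearts of male mice aged 2 months with a B6 strain background, in 3 groups with 2 arrays each. The RKIP-transgenic line expressed RKIP, which inhibits RAF and also GRK2, from the alpha-MHC promoter, which is active in heart muscle cells. GRK-Inh-transgenic mice expressed a peptide that inhibits GRKs, the kinases of G-protein-coupled receptors, in the myocardium, and the promoter of that transgene is not given in the sources used here. Wild-type B6 mice were the controls. The labels give neither the hour of tissue collection nor the lighting of the animals, and nothing in them ties each array to its own animal. The p-values therefore speak of the spread between these arrays, which may be technical.

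The circadian clock is a feedback loop that runs in nearly every cell, heart muscle cells included, with a period of about a day. The proteins of Arntl and Clock, or of Arntl and the Clock relative Npas2, pair and switch on genes that carry E-box sequences. Among these are the Per and Cry genes, whose proteins return to the nucleus and block the pair. Further loops run through the REV-ERB and ROR nuclear receptors, which repress and activate Arntl, and through the PAR bZIP factors such as DBP, which act at D-box sequences. Because of this wiring the transcripts of Arntl and those of Per genes and Dbp peak at opposite times of day in many tissues, the heart among them.

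Short stretches of the promoters show where members carry letters read by these factors. The RefSeq promoter table (build GRCm38.p6) covers 250 bases before to 50 bases from the start of transcription on. It held 11 promoters for 7 of the members, and none was printed for Per2. The letters searched on both strands were CACGTG (E-box), CACGTT (a variant E-box), TTANGTAA (D-box, N being any base), AGGTCA (the core of the element read by ROR and REV-ERB), TGACGTCA (the cAMP response element, CRE) and its shortened form TGACGT, which is contained in the full CRE. Matches are in capitals below, and positions count from the start of transcription as 1, with negative numbers upstream. The Per3 promoter is shown because Per3 had the largest fall among the members, the Arntl promoter because Arntl had the largest rise, and those of Per1 and Cry1 because they hold the E-box letters.
Per3, chr4:151044616-151044915, minus strand: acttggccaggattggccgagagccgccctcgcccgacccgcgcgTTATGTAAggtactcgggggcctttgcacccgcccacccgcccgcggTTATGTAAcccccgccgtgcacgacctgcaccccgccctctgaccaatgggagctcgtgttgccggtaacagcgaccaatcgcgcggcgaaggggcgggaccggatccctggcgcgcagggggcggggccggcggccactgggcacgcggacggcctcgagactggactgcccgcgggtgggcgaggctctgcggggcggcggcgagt
Arntl, chr7:113207261-113207560, plus strand: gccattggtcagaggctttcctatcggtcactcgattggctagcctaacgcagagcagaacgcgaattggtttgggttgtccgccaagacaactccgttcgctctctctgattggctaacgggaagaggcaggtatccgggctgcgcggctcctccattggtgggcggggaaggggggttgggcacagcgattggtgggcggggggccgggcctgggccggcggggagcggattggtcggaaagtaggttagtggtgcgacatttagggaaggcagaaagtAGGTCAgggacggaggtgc
Per1, chr11:69098699-69098998, plus strand: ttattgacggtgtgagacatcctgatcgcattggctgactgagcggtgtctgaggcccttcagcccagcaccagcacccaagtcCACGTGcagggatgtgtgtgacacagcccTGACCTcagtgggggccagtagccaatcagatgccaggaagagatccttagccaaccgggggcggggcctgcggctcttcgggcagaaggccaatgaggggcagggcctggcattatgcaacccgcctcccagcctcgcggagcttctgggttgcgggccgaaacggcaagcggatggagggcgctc
Cry1, chr10:85185005-85185304, minus strand: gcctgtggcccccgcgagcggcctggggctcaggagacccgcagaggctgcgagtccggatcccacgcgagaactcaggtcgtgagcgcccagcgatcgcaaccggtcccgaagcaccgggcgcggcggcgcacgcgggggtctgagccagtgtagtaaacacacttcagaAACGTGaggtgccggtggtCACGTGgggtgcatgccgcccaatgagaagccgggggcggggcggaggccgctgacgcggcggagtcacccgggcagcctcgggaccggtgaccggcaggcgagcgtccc
The Per3 stretch holds the D-box letters at 2 places, -205 to -198 and -158 to -151. Of 32851 promoters in the table, 763 (2.32%) hold at least 1 such match and 65 (0.198%) hold more than 1. The Arntl stretch shown has AGGTCA at positions 32 to 37, and 16.3% of all promoters hold these letters. In the Per1 stretch CACGTG stands at -166 to -161 and TGACCT, the reverse complement of AGGTCA, at -137 to -132. A second Per1 promoter holds TGACGT, found in 7.51% of all promoters. In the Cry1 stretch CACGTG stands at -60 to -55, beside AACGTG, the reverse complement of the variant E-box, at -79 to -74. The E-box letters occur in 7.15% of all promoters and the variant in 4.68%. Cry2 holds the variant too, 1 of the 3 Clock promoters holds AGGTCA, and the full CRE was in no promoter of the 7 members (1.79% of all promoters hold it). These matches are descriptions of the letters in these windows.

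Values below are deposited signals, a linear measure of probe brightness whose trimmed mean (2% of values left out at each end) was 300.002 on each array as deposited. Log2 fold changes are differences of log2(signal + 50), given ± SE from a limma model over all 6 arrays, and they understate changes of dim genes. Calls were made at an adjusted p (Benjamini-Hochberg, over the 11254 genes tested) under 0.05. Genes were tested when their mean log2 value reached 6.65, the median over non-control probe sets, which is a signal of 50.2. Of the 8 members 7 passed, and Npas2 did not. Median signals of the arrays lay between 50.4 and 55.2, and the heart muscle markers Myh6, Actc1, Tnnt2, Tnni3, Myl2, Pln, Ryr2 and Myl3 all passed the filter. Pebp1, the mouse gene for RKIP, differed by 0.015 ± 0.041 between RKIP-transgenic and control hearts (adjusted p = 0.866), and the sequence of the transgene is not given in the sources used here. This value does not test the transgene, so the group is called RKIP-labelled. The ratio of 3' to 5' actin control signals was 2.92 to 3.03 on the arrays of both transgenic groups and 3.11 to 3.25 on the control arrays, and its part in the results was not tested.

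GRK-Inh-transgenic hearts had higher Arntl and Clock and lower Per3 than control hearts, while Per1, Per2, Cry1 and Cry2 did not pass the test. In RKIP-labelled hearts no member passed against control. On the main probe sets the mean levels of Arntl, Clock and Per3 there lay between those of the other groups. The other Clock probe sets did not show this order and were lowest in RKIP-labelled hearts. Per3 was lower and Arntl higher in GRK-Inh-transgenic than in RKIP-labelled hearts when the lines were compared directly. That Arntl call was lost under 10 of 16 alternatives, given below. As the labels do not give the hour of tissue collection, its part in these differences was not tested. It cannot be told apart from that of the transgenes.

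**Figure D1:**
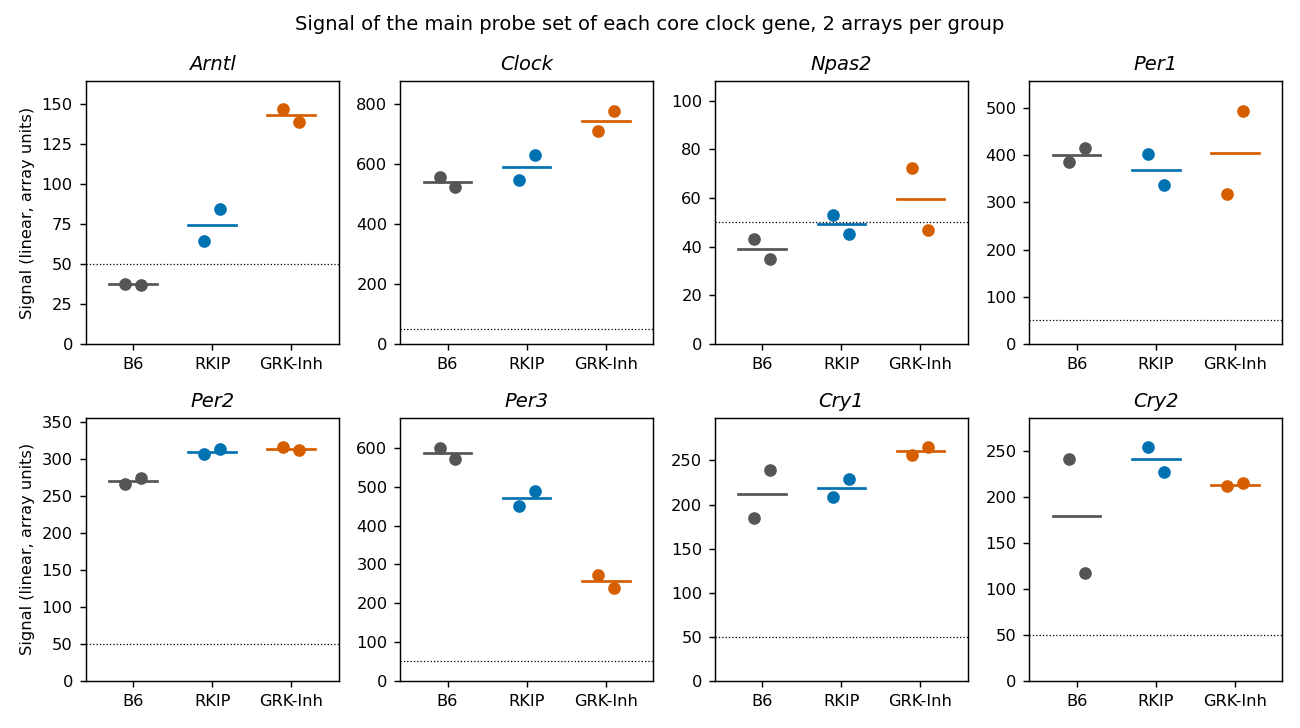
Signal of the main probe set of each member (vertical axis, linear array units from 0) in the 3 groups (horizontal axis), with a point for each array, a bar at the group mean and a dotted line at the filter level of 50.2. Arntl steps up from 37.4 in control to 143 in GRK-Inh-transgenic hearts and Per3 steps down from 587 to 256, whereas the points of Per1 overlap between groups.

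Arntl encodes BMAL1, the partner that the activator complex cannot do without. Its main probe set gave 37.9 and 36.9 in the control hearts, 64.8 and 84.6 in the RKIP-labelled hearts, and 147 and 139 in the GRK-Inh-transgenic hearts. The groups did not overlap in any of the 3 pairings, with the control arrays lowest and the GRK-Inh arrays highest. Against control, Arntl rose by 1.14 ± 0.17 on the log2 scale in GRK-Inh-transgenic hearts (adjusted p = 0.00129). In RKIP-labelled hearts the difference was 0.51 ± 0.17 and did not pass (adjusted p = 0.0875, 95% interval 0.13 to 0.88). RKIP-labelled hearts were lower than GRK-Inh-transgenic hearts by -0.63 ± 0.17 (adjusted p = 0.0440), a call lost under 10 of 16 alternatives. It was lost without a filter on dim genes (adjusted p = 0.104) and with an offset of 16 (adjusted p = 0.0585). All probe sets tested one by one ended it (adjusted p = 0.171), as did the replicate block and leaving out each of the 6 arrays in turn. The control mean of 37.4 is below the filter level, so Arntl entered the test only through its higher signals in the transgenic groups. Without any filter its rise in GRK-Inh-transgenic hearts still passed (adjusted p = 0.00726). It kept its call in all 16 alternatives in which it was tested, at sizes from 0.53 (offset 200) to 1.57 (offset 16). With the mean of all probe sets and with a filter at the 75th percentile it was not tested. The other Arntl probe set stayed dim, between 3.21 and 33.7 on the 6 arrays, and gave -0.32 ± 0.24 for GRK-Inh-transgenic against control hearts (adjusted p = 0.617 over all probe sets).

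Clock encodes the other partner of the activator pair. The control arrays read 556 and 525 for it, the RKIP-labelled arrays 549 and 631, and the GRK-Inh arrays 712 and 775. Both GRK-Inh arrays were above all others, and the RKIP-labelled arrays overlapped the controls. Clock rose by 0.43 ± 0.093 on the log2 scale in GRK-Inh-transgenic against control hearts (adjusted p = 0.0116). That call was lost with the mean of all probe sets of a gene (0.25, adjusted p = 0.161), with a variance without trend (adjusted p = 0.0599), without GRK-Inh replicate 2 (adjusted p = 0.0884) and without control replicate 2 (adjusted p = 0.0812). The RKIP-labelled hearts differed from control by 0.11 ± 0.093 (adjusted p = 0.497) and from GRK-Inh-transgenic hearts by -0.31 ± 0.093 (adjusted p = 0.0634), a difference that passed with the arrays shifted to a common median (adjusted p = 0.0480). Of the 4 Clock probe sets 3 were above the filter level. The second of these by signal gave 0.45 ± 0.15 for GRK-Inh-transgenic against control hearts and the third gave 0.098 ± 0.17, neither passing over all probe sets (adjusted p = 0.183 and 0.869). For RKIP-labelled against control hearts these probe sets gave -0.16 ± 0.15 and -0.10 ± 0.17, opposite in sign to the main one. The probe set below the filter level gave -0.17 ± 0.16. None of these passed over all probe sets (adjusted p = 0.720, 0.872 and 0.722).

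Npas2, which can stand in for Clock in the activator pair, had a mean below the filter level. Its main probe set gave 43.0 and 34.9 in control, 53.2 and 45.3 in RKIP-labelled and 72.1 and 46.7 in GRK-Inh-transgenic hearts. The GRK-Inh arrays overlapped those of the RKIP-labelled hearts and lay above the controls, and 1 array of each transgenic line exceeded 50.2. Without the filter the difference between GRK-Inh-transgenic and control hearts was 0.29 ± 0.19 (adjusted p = 0.466), and that between RKIP-labelled and control hearts was 0.16 ± 0.19 (adjusted p = 0.743).

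Per3 encodes a PERIOD protein that is not needed for the loop to run. The control hearts gave 600.4 and 573, the RKIP-labelled hearts 451 and 491, and the GRK-Inh-transgenic hearts 272 and 241. The groups did not overlap, in the order opposite to that of Arntl. Per3 fell by 1.06 ± 0.10 on the log2 scale in GRK-Inh-transgenic against control hearts (adjusted p = 6.2e-05), to 0.437 of the control mean signal. None of the 18 alternatives ended this call, and they gave -1.15 to -0.51. RKIP-labelled hearts differed from control by -0.29 ± 0.10, which did not pass (adjusted p = 0.0958, 95% interval -0.51 to -0.07). The same hearts were higher than GRK-Inh-transgenic hearts by 0.77 ± 0.10 (adjusted p = 0.000891), a call lost with the mean of all probe sets (0.36, adjusted p = 0.0808).

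Per3 had 6 probe sets, 5 of them above the filter level. In the comparison of GRK-Inh-transgenic with control hearts the main one was at -1.06 ± 0.092 (adjusted p = 0.000867 over all probe sets). The next 3 by signal were at -0.65 ± 0.14, -0.55 ± 0.14 and -0.40 ± 0.15, and did not pass over all probe sets (adjusted p = 0.0551, 0.0815 and 0.261). The dimmest probe set above the filter was at -0.19 ± 0.21 and the probe set below it at -0.22 ± 0.19. All 6 values were below 0, and the 2 dimmest probe sets gave the smallest differences.

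**Figure D2:**
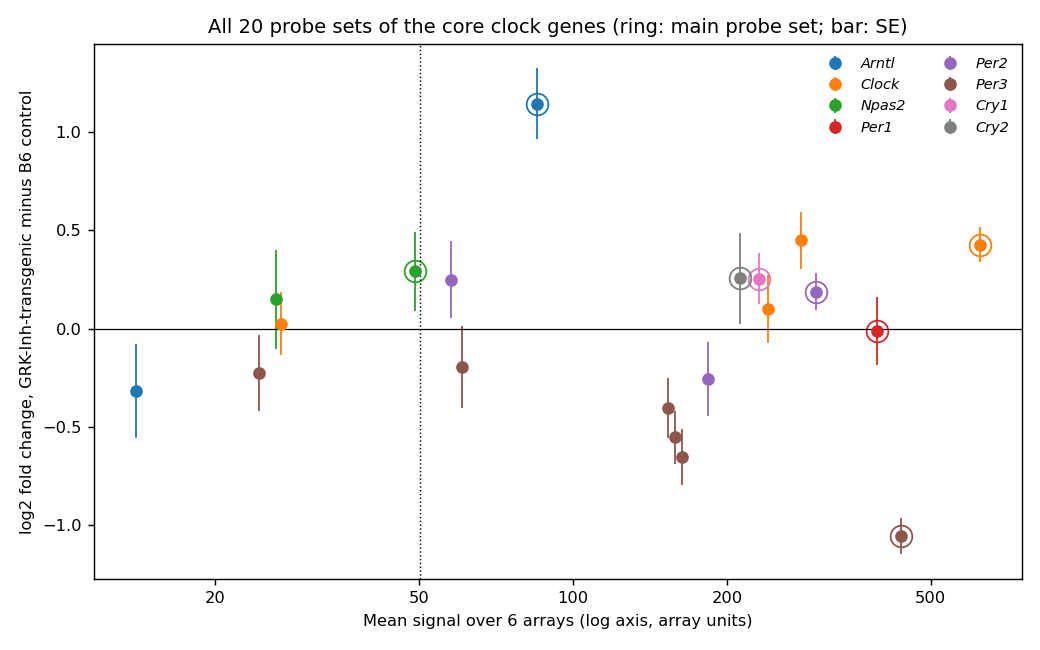
Log2 fold change of GRK-Inh-transgenic against control hearts (vertical axis, bars are SE) for the 20 probe sets of the members, against mean signal over 6 arrays (horizontal axis, log scale), with rings around the main probe sets and a dotted line at the filter level of 50.2. The 6 Per3 probe sets all lie below 0, from -1.06 to -0.19, and the main Arntl probe set is at 1.14.

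Per1 encodes the PERIOD protein whose gene responds fastest to hormones and second messengers. Its single probe set gave 385 and 415 in control, 402 and 337 in RKIP-labelled and 317 and 493 in GRK-Inh-transgenic hearts. The 2 GRK-Inh arrays were the lowest and the highest of all 6. Differences from control were -0.11 ± 0.16 in RKIP-labelled hearts (adjusted p = 0.743) and -0.011 ± 0.16 in GRK-Inh-transgenic hearts (adjusted p = 0.976, 95% interval -0.37 to 0.35). The sign of the GRK-Inh difference turned with quantile normalization and with a common median.

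Per2 encodes a PERIOD protein that the loop depends on. Control hearts gave 266 and 274, RKIP-labelled hearts 306 and 313, and GRK-Inh-transgenic hearts 316 and 312. Both transgenic groups lay above the controls and overlapped each other. The differences from control, 0.17 ± 0.10 and 0.19 ± 0.10, did not pass (adjusted p = 0.342 and 0.267). The other Per2 probe sets did not pass either, and the brighter of them gave 0.27 ± 0.19 in RKIP-labelled and -0.26 ± 0.19 in GRK-Inh-transgenic hearts (adjusted p = 0.620 and 0.609 over all probe sets).

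Cry1 and Cry2 encode the cryptochromes, the strongest repressors of the activator pair. Cry1 gave 185 and 239 in control, 209 and 229 in RKIP-labelled and 256 and 266 in GRK-Inh-transgenic hearts. The GRK-Inh arrays were above the other 4, but the difference from control of 0.25 ± 0.13 did not pass (adjusted p = 0.243, 95% interval -0.04 to 0.55). Cry2 read 242 and 118 on the control arrays, 255 and 227 on the RKIP-labelled arrays and 212 and 215 on the GRK-Inh arrays. Control replicate 2 was the lowest of all 6 arrays, while control replicate 1 lay within the RKIP-labelled range. Differences from control were 0.40 ± 0.21 in RKIP-labelled and 0.25 ± 0.21 in GRK-Inh-transgenic hearts, and neither passed (adjusted p = 0.278 and 0.480). Without control replicate 1 they were 0.80 and 0.65 and passed (adjusted p = 0.0224 and 0.0362), and without control replicate 2 they were -0.0030 and -0.14 (adjusted p = 0.995 and 0.603).

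**Figure D3:**
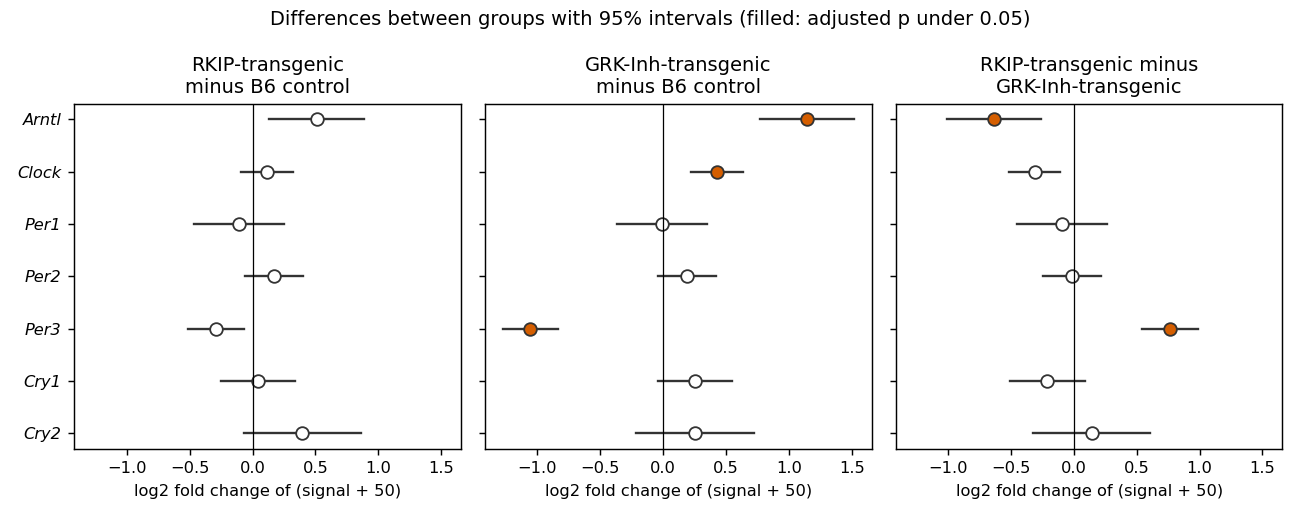
Log2 fold changes of log2(signal + 50) with 95% intervals (horizontal axis) of the 7 tested members in the 3 comparisons, filled where the adjusted p is under 0.05. Arntl, Clock and Per3 are filled for GRK-Inh-transgenic against control hearts, Arntl and Per3 for the direct comparison of the lines, and none for RKIP-labelled against control hearts.

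In the comparison of RKIP-labelled with control hearts 0 of the 7 tested members passed by limma, where 10.8% of all genes tested were called, 5.32% as higher and 5.52% as lower. At an unadjusted p under 0.05 there were 2, Arntl and Per3, but this threshold is looser than that of the shares just given. The share of all genes that reach it was not counted, so these 2 cannot be set against it. The arrays of the groups did not overlap for 3 members, against 53.4% of all genes. In the comparison of GRK-Inh-transgenic with control hearts 2 members rose and 1 fell, where 13.1% of all genes were called, 5.85% as higher and 7.25% as lower. The arrays did not overlap for 5 members, against 56.9% of all genes. The median absolute log2 fold change of the tested members was 0.25, beside 0.15 over all genes. Between RKIP-labelled and GRK-Inh-transgenic hearts 1 member was higher and 1 lower, where 8.84% of all genes were called, 4.47% as higher and 4.37% as lower. For 5 members the arrays did not overlap, against 52.9% of all genes. The counts of each comparison and the median include Arntl, which entered the test only through its higher signals in the transgenic groups. Ranked by absolute log2 fold change in GRK-Inh-transgenic against control hearts, Per3 was 59 of 11254 genes, Clock was 1089 and Per1 was 10787. These ranks rest on the main probe sets. The other Per3 probe sets gave smaller falls, from -0.65 to -0.19. No rank is given for Arntl, whose control level lay below the filter and whose log2 fold change moved with the offset. The comparisons with control share the control arrays. With the arrays shifted to a common median, 60% of the calls in GRK-Inh-transgenic against control hearts were higher, beside 44.6% as deposited, and in the direct comparison of the lines 34.7% beside 50.6%. The directions of Arntl, Clock and Per3 were the same with that shift and with quantile normalization.

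Genes whose 6-array profile lay nearest to that of a called member were found by the root-mean-square distance between log2 values centred on each gene's mean. For Per3 the nearest was Dbp, the PAR bZIP factor gene, at a distance of 0.059, where the profile of Per3 itself had a spread of 0.45. The sterol and steroid enzyme gene Hsd17b7 (0.063) and the scaffold gene Magi3 (0.082) followed, and the small heat shock protein gene Hspb1 was nearest to the mirror image (0.059). For Arntl, with a spread of 0.47, the nearest were the endoplasmic reticulum genes Creld2 (0.074) and Manf (0.075) and the Hsp70 family gene Hspa1l (0.098), and Tmem86a was nearest to the mirror image (0.10). For Clock, with a spread of 0.19, they were Midn (0.034), Kif18b (0.034) and Dmxl1 (0.035), with Grhl2 nearest to the mirror image (0.019). The distances describe these 6 arrays and were taken at the offset used for the tests. The control level of Arntl lay below the filter. Its log2 fold change in GRK-Inh-transgenic against control hearts moved with the offset, from 0.53 (offset 200) to 1.57 (offset 16). Whether the genes nearest to Arntl, Clock and Per3 stay the same with another offset was not tested.

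The factors that carry the clock's signal onward include the D-box factors and the REV-ERB and ROR receptors. Of 9 such genes 7 were tested, and 1 rose and 3 fell in GRK-Inh-transgenic hearts against control. Among all genes tested 5.85% rose and 7.25% fell in that comparison. The median log2 fold change of the list was -0.28, beside -0.031 over all genes. Dbp gave 8327 and 8041 in control, 6884 and 7107 in RKIP-labelled and 3837 and 3758 in GRK-Inh-transgenic hearts, the same order of groups as Per3. It fell by 1.10 ± 0.043 in GRK-Inh-transgenic hearts (adjusted p = 8.0e-08) and by 0.22 ± 0.043 in RKIP-labelled hearts (adjusted p = 0.00730), the latter call lost without RKIP replicate 1, without control replicate 1 and with a variance without trend. Nfil3, which encodes a repressor at the same D-box sequences, rose by 0.59 ± 0.11 in GRK-Inh-transgenic hearts (adjusted p = 0.00509), from 266 ± 23.0 to 425 ± 16.6 (mean signal ± SD, n = 2). In RKIP-labelled hearts Nfil3 was at 208 ± 0.232, and the direct comparison of the lines gave -0.88 ± 0.11 (adjusted p = 0.000718).

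Nr1d2, which encodes REV-ERB beta, fell by 0.29 ± 0.050 in GRK-Inh-transgenic hearts (adjusted p = 0.00305), and did not pass when the variance was modelled without a trend. Hlf, another PAR bZIP gene, fell by 0.61 ± 0.18 (adjusted p = 0.0456), a call lost under 9 alternatives, without GRK-Inh replicate 2 and without either control array among them (log2 fold change -0.95 to -0.27 over the alternatives). In RKIP-labelled hearts 0 genes of the list rose and 2 fell, Dbp and Nr1d1, where 5.32% of all genes rose and 5.52% fell. Nr1d1, which encodes REV-ERB alpha, a repressor of Arntl, gave 229 and 221 in control, 120 and 157 in RKIP-labelled and 173 and 181 in GRK-Inh-transgenic hearts. The RKIP-labelled arrays were lowest. Nr1d1 fell by 0.55 ± 0.14 there (adjusted p = 0.0300), a call lost under 6 alternatives, without RKIP replicate 1 and without either control array among them, and it did not pass in GRK-Inh-transgenic hearts (-0.28, adjusted p = 0.223).

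**Figure D4:**
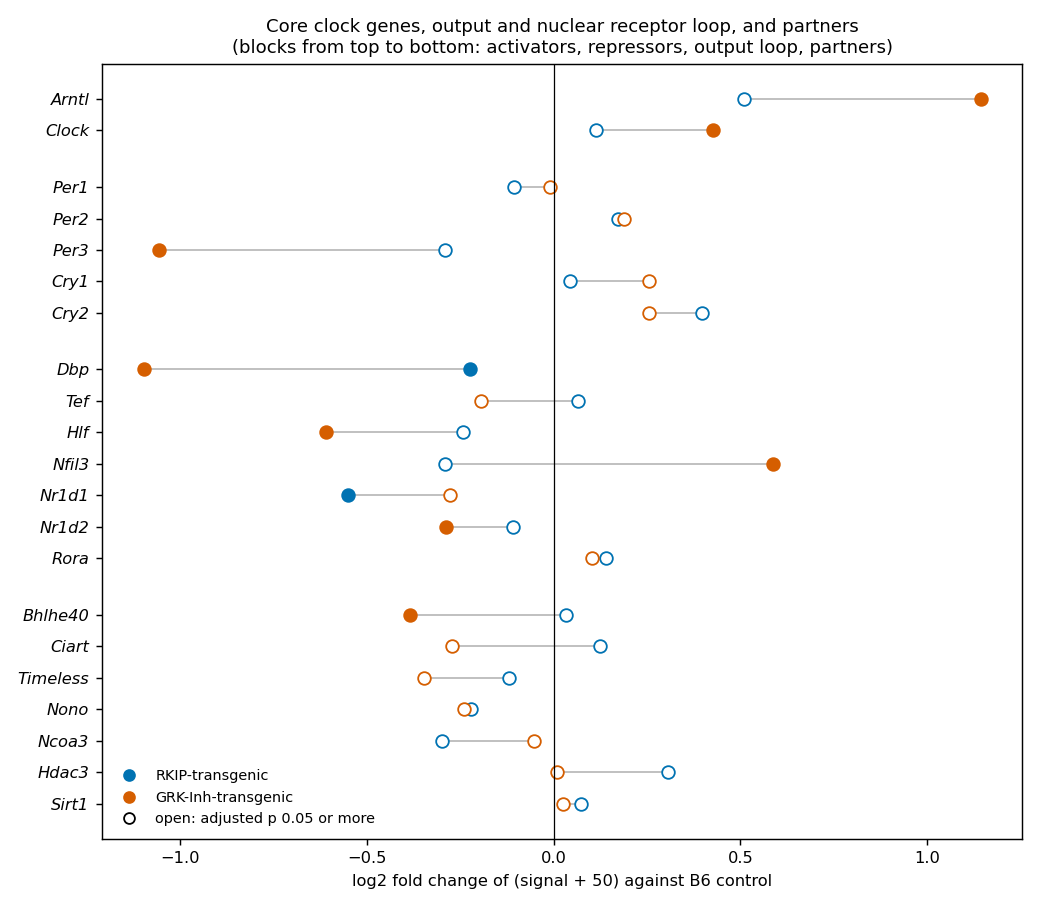
Log2 fold change against control (horizontal axis) in RKIP-labelled hearts (blue) and GRK-Inh-transgenic hearts (orange) for the tested members and the tested genes of the output and partner lists (rows), filled where the adjusted p is under 0.05. Arntl (1.14), Nfil3 (0.59) and Clock (0.43) are filled to the right, and Dbp (-1.10) and Per3 (-1.06) lie farthest to the left.

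Of 11 accessory repressors and partners 7 were tested. Against control, 13.1% of all genes were called in GRK-Inh-transgenic and 10.8% in RKIP-labelled hearts. The E-box repressor gene Bhlhe40 (also called Dec1) fell by 0.39 ± 0.075 in GRK-Inh-transgenic hearts against control (adjusted p = 0.00620), from 1135 ± 57.9 to 857 ± 42.7, a call lost without GRK-Inh replicate 1, without control replicate 1 and with a variance without trend. It was the single call of this list in that comparison, and 0 of the 7 passed in RKIP-labelled hearts, where the gene of highest signal, Nono, was at -0.22 ± 0.095 (adjusted p = 0.176). Between the lines Bhlhe40 was higher in RKIP-labelled hearts (0.42 ± 0.075, adjusted p = 0.00616), a call lost under 3 alternatives, without RKIP replicate 2 and without GRK-Inh replicate 1 among them. Genes for the turnover of PER and CRY proteins numbered 17, of which 14 were tested. Of these 2 rose and 0 fell in each line against control. Of all genes tested, 5.85% rose and 7.25% fell in GRK-Inh-transgenic hearts, and 5.32% rose and 5.52% fell in RKIP-labelled hearts. Dyrk1a, a kinase that marks CRY2 for breakdown, rose by 0.49 ± 0.089 in GRK-Inh-transgenic hearts (adjusted p = 0.00447) and by 0.47 ± 0.089 in RKIP-labelled hearts (adjusted p = 0.00754, lost without RKIP replicate 2 and without control replicate 1). The other calls were the casein kinase gene Csnk1d in GRK-Inh-transgenic hearts (0.24 ± 0.060, adjusted p = 0.0227) and the kinase gene Gsk3b in RKIP-labelled hearts (0.24 ± 0.061, adjusted p = 0.0321), lost under 6 and 7 alternatives, without either array of the line and without control replicate 2 among them for both.

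Genes that follow the heart's clock or act downstream of it did not move one way. Of 20 listed genes 18 were tested, with 5 higher and 3 lower in RKIP-labelled hearts and 6 higher and 4 lower in GRK-Inh-transgenic hearts. Their median log2 fold changes were 0.033 and 0.034. Over all genes 5.32% rose and 5.52% fell in RKIP-labelled hearts, and 5.85% rose and 7.25% fell in GRK-Inh-transgenic hearts. The largest changes of this list in both lines were those of Tfrc, the gene of the transferrin receptor, which fell by 2.05 ± 0.053 in RKIP-labelled hearts and fell by 2.58 ± 0.053 in GRK-Inh-transgenic hearts (adjusted p = 9.4e-09 and 8.1e-10). Bdh1, the gene of a ketone body enzyme, rose by 1.39 ± 0.073 in RKIP-labelled hearts (adjusted p = 1.2e-06), where Pdk4, the gene of a kinase that restrains glucose oxidation, fell by 0.89 ± 0.041 (adjusted p = 4.9e-07). In GRK-Inh-transgenic hearts Bdh1 rose too, by 0.72 ± 0.073, and Pdk4 rose by 0.35 ± 0.041 (adjusted p = 0.000104 and 0.000268). Tspan4 encodes a tetraspanin membrane protein and fell by 0.82 ± 0.088 in GRK-Inh-transgenic hearts (adjusted p = 0.000147). RKIP-labelled hearts had more of it than GRK-Inh-transgenic hearts, by 0.63 ± 0.088 (adjusted p = 0.00146), as for Per3 and Dbp. Cdkn1a, the gene of the cell cycle inhibitor p21, rose by 1.01 ± 0.13 in GRK-Inh-transgenic hearts (adjusted p = 0.000430). Ucp3, the gene of a mitochondrial carrier, fell in both lines, by 1.29 ± 0.10 in RKIP-labelled and 1.12 ± 0.10 in GRK-Inh-transgenic hearts (adjusted p = 2.0e-05 and 4.4e-05).

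Glucocorticoids, immediate early signalling, heat and cAMP are known inputs to the clock, and genes that respond to them were listed apart from the members. These lists and those above were chosen with earlier results of these data known. Of all genes tested, 5.85% rose and 7.25% fell in GRK-Inh-transgenic hearts, and 5.32% rose and 5.52% fell in RKIP-labelled hearts. A link of the listed genes to the changes of Arntl, Clock and Per3 was not tested. Of 14 glucocorticoid-responsive genes 11 rose and 1 fell in GRK-Inh-transgenic hearts against control, with a median of 0.54, and in RKIP-labelled hearts 1 rose and 2 fell, with a median of 0.031. Zbtb16 rose by 1.79 ± 0.11 and the kinase gene Sgk1 by 1.00 ± 0.063 in GRK-Inh-transgenic hearts (adjusted p = 2.3e-06 and 3.2e-06). Of 20 immediate early genes 18 were tested, with 13 higher and 0 lower in GRK-Inh-transgenic hearts and 1 higher and 2 lower in RKIP-labelled hearts. Fos rose by 2.70 ± 0.15 in GRK-Inh-transgenic hearts (adjusted p = 1.4e-06). Egr1 rose by 1.47 ± 0.076 in GRK-Inh-transgenic hearts and fell by 1.07 ± 0.076 in RKIP-labelled hearts (adjusted p = 6.8e-07 and 1.2e-05). Dusp1 likewise rose in the former (0.76 ± 0.071, adjusted p = 5.7e-05) and fell in the latter (-0.61 ± 0.071, adjusted p = 0.000367). Nr4a1 rose in both, by 1.23 ± 0.13 in GRK-Inh-transgenic and 1.00 ± 0.13 in RKIP-labelled hearts (adjusted p = 0.000122 and 0.000655). Of 14 heat shock genes 12 were tested, with 9 higher and 0 lower in GRK-Inh-transgenic hearts, median 0.86, and 2 higher and 2 lower in RKIP-labelled hearts. Hsp90aa1, the gene of an inducible HSP90 chaperone, rose by 1.32 ± 0.057 in GRK-Inh-transgenic and by 0.31 ± 0.057 in RKIP-labelled hearts (adjusted p = 1.7e-07 and 0.00691), the call in RKIP-labelled hearts being lost with the mean of all probe sets, with a variance without trend and without control replicate 1. Of 14 genes of the cAMP and CREB axis, which acts on Per1 through the CRE, 11 were tested, and 2 rose and 0 fell in GRK-Inh-transgenic hearts. These were Sik3 (0.34 ± 0.066, adjusted p = 0.00601, lost with the mean of all probe sets) and Creb1 (0.29 ± 0.075, adjusted p = 0.0274, lost under 7 alternatives, without GRK-Inh replicate 2 and without either control array among them).

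The clock runs in all cell types of the heart, and in bulk RNA fewer cells of a type and less RNA per cell cannot be told apart. The marker counts below stand beside shares over all genes. These were 5.32% higher and 5.52% lower in RKIP-labelled hearts, and 5.85% higher and 7.25% lower in GRK-Inh-transgenic hearts. Of 9 fibroblast markers 7 fell in RKIP-labelled and 8 fell in GRK-Inh-transgenic hearts, with 0 higher in either. Their summed signal was 50571 to 53238 on the control arrays, 37836 to 38032 on the RKIP-labelled arrays and 35232 to 35741 on the GRK-Inh arrays. Of 8 heart muscle markers 0 passed in GRK-Inh-transgenic hearts and 1 fell in RKIP-labelled hearts. Of 4 markers of atrial heart muscle 0 passed in GRK-Inh-transgenic hearts and 2 fell in RKIP-labelled hearts. These were Myl7 (-0.35 ± 0.033, adjusted p = 7.4e-05) and Sln (-0.14 ± 0.038, adjusted p = 0.0404). Of 7 endothelial markers 2 fell in each line, and of 8 macrophage markers 1 fell in RKIP-labelled and 3 fell in GRK-Inh-transgenic hearts. Among 4 tested lymphocyte markers 2 rose in GRK-Inh-transgenic hearts, the immunoglobulin chain genes Ighm (172 ± 22.4 in control, 843 ± 7.66 in GRK-Inh-transgenic hearts) and Jchain (49.1 ± 16.4 and 198 ± 68.2). Ptprc, the gene of the leukocyte antigen CD45, was at 386 ± 8.82 and 409 ± 24.2 (mean ± SD, n = 2). In RKIP-labelled hearts 1 lymphocyte marker fell, Ighm (-0.51 ± 0.12, adjusted p = 0.0193). The summed signal of the 7 lymphocyte markers with a probe set was 698 to 727 in control, 583 to 614 in RKIP-labelled and 1570 to 1608 in GRK-Inh-transgenic hearts. The T cell markers Cd3e and Cd3g and the B cell marker Cd79a did not reach the filter level. Another B cell marker, Ms4a1, was tested. It gave 64.4 and 35.3 in control, 35.1 and 37.4 in RKIP-labelled and 96.4 and 93.2 in GRK-Inh-transgenic hearts. The difference of GRK-Inh-transgenic from control hearts, 0.55 ± 0.20, did not pass (adjusted p = 0.0957). RKIP-labelled hearts differed from GRK-Inh-transgenic hearts by -0.75 ± 0.20 (adjusted p = 0.0430). Of 7 markers of smooth muscle and pericytes 5 fell in RKIP-labelled and 3 in GRK-Inh-transgenic hearts, and of 4 tested white fat markers 3 fell in RKIP-labelled and 1 in GRK-Inh-transgenic hearts. The part of these cell types in the changes of Arntl, Clock and Per3 was not tested.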

How the data were processed

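Mouse heart RNA was hybridised on 6 arrays as biotin-labelled cRNA (Affymetrix), per the labels' protocols. Each probe set has a linear intensity that the authors computed with GCOS, per the submitters' processing notes (version not stated). No detection calls were used here. The table was taken as deposited, and log2(signal + 50) was tested without further normalization. Of 45101 probe sets 64 controls were set aside and 34945 had a single symbol in the gene table. R 4.3.3 and limma 3.58.1 fitted 1 model over the 6 arrays (3 residual degrees of freedom, variance trend), two-sided, tested on simulated data. The number of arrays limits the precision, with a median SE of 0.115 over log2 fold changes. The members and the gene lists were chosen with earlier results of these data known. The text names all members, per list and comparison up to 4 called genes of largest change (or the brightest where none was called), the nearest profiles and Pebp1, and not every gene so found is printed. Replicate numbers were not taken as pairs. Alternatives were other normalizations, offsets, filters, probe set choices, variance models, thresholds, samples, a replicate block and leaving out each array. Promoter letters are from RefSeq (GRCm38.p6). Plots used matplotlib 3.10.9.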

Additional observations from a re-analysis of the deposited data

How the results depend on the processing

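Of 366 member values recomputed under the alternatives, 335 kept their direction and their side of the threshold, 15 lost a call, 3 gained one and 13 changed sign. No sign change touched a called value. The cause of the changes was not tested, except where fewer genes or samples enter by construction. Deviations of same-numbered arrays from their group means correlated at -0.035 to 0.026 over all genes tested. A tie between them that acts on some genes only was not tested. The replicate block gave 1153 genes called for RKIP-labelled against control, 1436 for GRK-Inh-transgenic against control and 907 between the lines, with 0, 3 and 1 members, the last being without Arntl (adjusted p = 0.0605). It changed no other call of a member, and of the other genes named it ended the call of Hlf in GRK-Inh-transgenic hearts. For RKIP-labelled against control, with 1220 genes called, all probe sets tested one by one gave 552, the mean of all probe sets 756, a variance without trend 293 and an adjusted p under 0.01 gave 522. Leaving out 1 array gave 624 to 1137 genes and 0 to 1 members. An adjusted p under 0.10 gave 2 members. For GRK-Inh-transgenic against control, with 1474 genes, the same 4 alternatives in this order gave 839 with probe sets, no change beyond 1.5 times with their mean, 726 without trend and 771 at 0.01, and 0.10 gave 2244. Leaving out 1 array gave 904 to 1484 genes and 2 to 4 members, and the mean of all probe sets left 1 member of 3. Between the lines, with 995 genes, no filter gave 619, all probe sets 459, their mean 618, a variance without trend 251, 0.01 gave 418 and 0.10 gave 1510. Leaving out 1 array gave 476 to 876 genes and 1 to 1 members. The count of members, 2, was 1 with an offset of 16, no filter, a filter at the 75th percentile (where Arntl was not tested), all probe sets, the replicate block and 0.01, and 0 with the mean of all probe sets, where Arntl was again not tested. Values that changed sign were those of Clock (-0.080) for RKIP-labelled against control and Per2 (0.13) between the lines with the mean of all probe sets, and Per1 for GRK-Inh-transgenic against control with quantile normalization (0.0019) and a common median (0.034). Leaving out 1 array turned Per1 (-0.22 to 0.0048 for RKIP-labelled against control, -0.29 to 0.27 for GRK-Inh-transgenic against control, -0.38 to 0.19 between the lines), Cry1 (-0.11 to 0.19 for RKIP-labelled against control) and Cry2 (-0.0030 to 0.80 and -0.14 to 0.65 for the lines against control). Signals near the filter level limit what can be said of Npas2 and of Arntl in control hearts.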
